A study of Mus musculus with 4 samples.

Results

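The G2 and mitosis genes described here are 38 protein-coding genes whose products carry a cell from G2 through division, from CDK1 and its cyclins to the kinetochore, the spindle and the cytokinesis ring. They were chosen by symbol, and all 38 were found among the 37620 genes of the count table and were among the 16264 genes tested. RNA-seq compared mouse embryonic stem cells (mESCs) that live on a mutant CTCF, named MUT_CTCF, with mESCs that live on wild-type CTCF, named WT_CTCF, to ask what RNA changes when CTCF, the DNA-binding protein that anchors chromatin loops, cannot carry the sugar O-GlcNAc at T668. Both lines were made in CTCF-EGFP-AID mESCs, in which the endogenous CTCF carries a GFP and a degron tag and is removed with auxin, and each carries a vector for the replacing CTCF, wild type in WT_CTCF and mutated at T668 in MUT_CTCF. Each line came from a picked, hygromycin-selected clone with exogenous CTCF near the endogenous level, was grown with serum and LIF on gelatin, and gave 2 biological replicates, so that the mutation cannot be told apart from other differences between the lines. How long the RNA-seq cells were in auxin was not given in the sources used here.

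Transcription of these genes rises late in the cell cycle and falls after division. In resting or early G1 cells the DREAM complex holds their promoters silent through the CHR element, and in late S phase and G2 the MuvB core turns to B-MYB and FOXM1, which switch them on, while NF-Y at CCAAT boxes adds to the output. Mouse ESCs cycle fast with a short G1 phase, and a large share of them is in S phase or G2 at any moment.

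Total counts were 40977464 and 40824156 in WT_CTCF replicates 1 and 2, and 40899401 and 40524694 in MUT_CTCF replicates 1 and 2. The Ctcf gene itself had 18302 and 18669 normalized counts with wild-type CTCF, against 18790.5 and 19325 with the mutant, where a normalized count is a count divided by the library's TMM-scaled size relative to the mean library. Gene counts do not separate the tagged from the replacing CTCF and so do not check the labels. All 8 mESC markers were abundant in both lines, from 98.9 CPM per kb (counts scaled to equal library size, per kb of exon) for Klf4 to 1457 for Dppa5a. The 8 fibroblast markers summed to 45.4 and 46.8 CPM in WT_CTCF and 46.7 and 51.9 in MUT_CTCF, most of it from Pdgfrb and Thy1, and Postn, Dcn and Lum had at most 6 counts in any library.

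The G2 and mitosis genes differed little between the lines, and more of them had a lower than a higher value in MUT_CTCF. Only Cdc20, the activator of the anaphase-promoting complex (APC), passed the test, and in MUT_CTCF it fell by 8.58%. Of the 38 members, 1 (2.63%) was lower at an adjusted p under 0.05 from edgeR's quasi-likelihood test with Benjamini-Hochberg adjustment, beside 1.61% of all tested genes, and 0 were higher, beside 1.56%; DESeq2 gave the same 1 and 0. The count lower was 0 with no filter on low counts, and 0 with WT_CTCF replicate 1, MUT_CTCF replicate 1 or MUT_CTCF replicate 2 left out, at edgeR Benjamini-Hochberg adjusted p for Cdc20 of 0.288, 0.225, 0.499 and 0.394. At an unadjusted p under 0.05, 4 members (10.5%) were lower, Cdc20, Mad2l1, Top2a and Ccna2, beside 7.65% of all tested genes, and 0 were higher, beside 7.61%; DESeq2 gave 3 lower and 0 higher. Scaled by library size only, edgeR gave 2 lower and 2 higher. It gave 7 lower and 0 higher with no filter and 8 lower and 0 higher under a replicate block. The 7.65% and 7.61% of all tested genes are of the main fit and cannot be set beside the counts of other fits. Leaving out MUT_CTCF replicate 1 gave 6 lower and 1 higher, and leaving out MUT_CTCF replicate 2 gave 2 and 0. Over the whole table, edgeR's quasi-likelihood test with Benjamini-Hochberg adjustment called 262 genes lower and 253 higher (49.1% of calls higher), against 152 and 260 (63.1%) by library size only. With no filter on low counts the same test called 3 lower and 26 higher (89.7%). The study called a gene at an unadjusted p under 0.05 if it also changed more than 2-fold, and by that rule 0 members changed with edgeR and 0 with DESeq2, beside 1.3% of all tested genes.

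The median log2 fold change (MUT_CTCF over WT_CTCF) of the 38 genes was -0.038, beside 0.00345 over all tested genes. Leaving out WT_CTCF replicate 1 moved the members' median to -0.024, and leaving out MUT_CTCF replicate 1 moved it to -0.056. Of the members, 26 of the 38 lay below 0, 68.4%, beside 49.2% of all tested genes. Both MUT_CTCF libraries lay below both WT_CTCF libraries for 15 members, 39.5% of them, beside 22.3% of all tested genes, and above both for 7 members, 18.4%, beside 22.3%. For the other 16 members the groups overlapped. The members had a higher median level than tested protein-coding genes, log2 fold change fell with level over tested protein-coding genes (Spearman's rho -0.20), and the values of all tested genes were not adjusted for level. The summed share of all counts in the 38 genes was 0.524% and 0.523% in WT_CTCF replicates 1 and 2, against 0.517% and 0.511% in those of MUT_CTCF. In bulk RNA, fewer cells in G2 and mitosis and less RNA per such cell cannot be told apart.

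**Figure D1:**
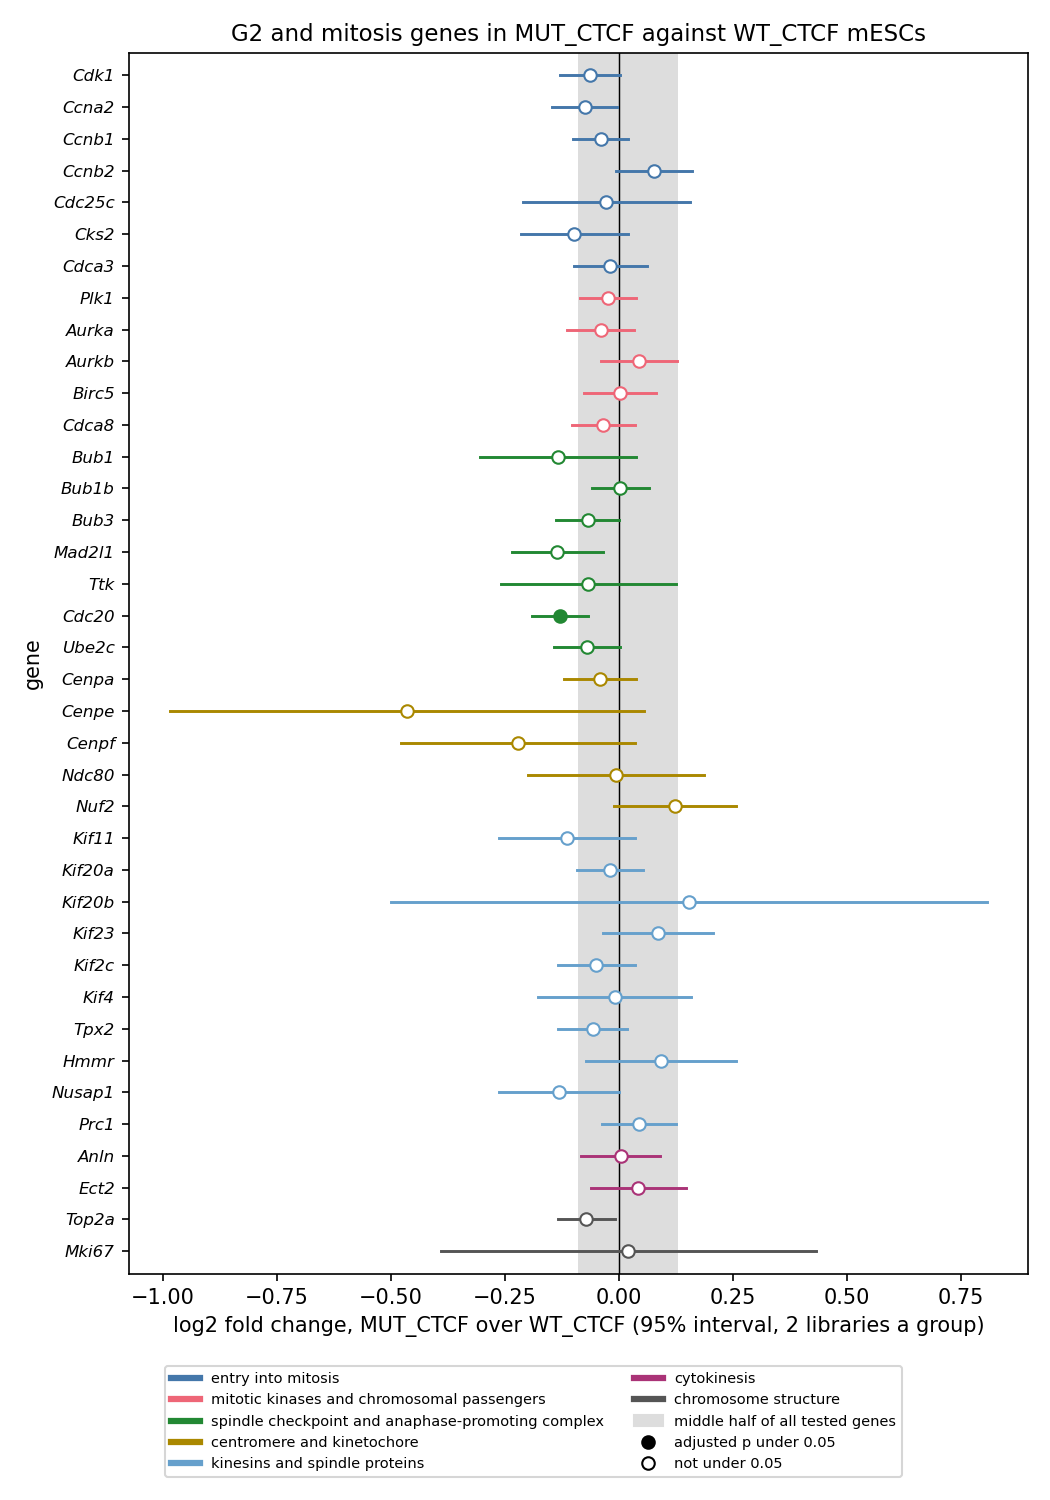
Log2 fold change of each of the 38 G2 and mitosis genes, MUT_CTCF over WT_CTCF, with its 95% interval from 2 libraries a group, coloured by role; the grey band is the interquartile range of all 16264 tested genes. Filled points mark an adjusted p under 0.05, which only Cdc20 reached, and the long intervals belong to Cenpe, Cenpf, Kif20b and Mki67, the members with the fewest counts.

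For 19 of the 38 members the 95% interval, from 2 libraries a group and not adjusted over the 38 genes, lay within a change of 10% either way, and for 34 within 20%. The other 4 were Cenpe, Cenpf, Kif20b and Mki67, each with at most 479 normalized counts in any library. Among the 31 members with a WT_CTCF mean of at least 1000 normalized counts, the largest absolute log2 fold change was 0.13. Between the 2 single libraries of a line, the members' median absolute log2 difference was 0.043 in WT_CTCF and 0.040 in MUT_CTCF. The members' median absolute log2 fold change between the lines was 0.061, beside 0.106 over all tested genes. It compares groups of 2 libraries, not single libraries, so the within-line and between-line values are unlike measures. In 16 members, 42.1%, the lines differed more than the replicates of either, beside 31.7% of all tested genes.

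Among the genes for entry into mitosis, Cdk1, the kinase that drives it, had 11638 and 11389 normalized counts in WT_CTCF replicates 1 and 2, against 10976 and 11064 in those of MUT_CTCF. The MUT_CTCF libraries were the lower 2, with a log2 fold change of -0.063 ± 0.032 (SE) and an interval of -0.13 to 0.0018 that holds 0. Its S and G2 partner cyclin A2, from Ccna2, had 8529.5 and 8771 normalized counts in WT_CTCF replicates 1 and 2, against 8243 and 8181 in those of MUT_CTCF. The groups did not overlap, and the log2 fold change of -0.075 ± 0.035 (SE) had an unadjusted p of 0.0391 and an adjusted p of 0.301 in edgeR's quasi-likelihood test with Benjamini-Hochberg adjustment; 512 of the gene's 3510 exon bases also lie in Exosc9 on the opposite strand. The strand used in counting was not given in the sources used here.

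The B cyclins, the partners of CDK1 in mitosis, gave fold changes on opposite sides of 0, and neither passed the test. Ccnb1 had 15106 and 14825 normalized counts in WT_CTCF replicates 1 and 2, against 14862 and 14242 in those of MUT_CTCF, which overlapped (log2 fold change -0.040, 95% interval -0.10 to 0.021). Ccnb2 had 5489 and 5586 normalized counts in WT_CTCF replicates 1 and 2, against 5642 and 6043 in those of MUT_CTCF. Here both MUT_CTCF libraries were the higher 2 (log2 fold change 0.077, 95% interval -0.0063 to 0.16), and 0 lay within the interval. Cks2, the small CDK1-binding subunit, was lower in 1 MUT_CTCF library, 2351 normalized counts against 2696 in the other and 2665 and 2736 in the WT_CTCF libraries (log2 fold change -0.098, 95% interval -0.22 to 0.019). Matches of at least 200 bases at 95% identity or more lie elsewhere in the mm9 genome over 76.4% of the Ccnb1 transcript and 86.6% of the Cks2 transcript, and the counts hold uniquely mapped reads, so the levels of these 2 genes are uncertain. The groups also overlapped for Cdc25c, the phosphatase that removes the inhibitory phosphates of CDK1 (log2 fold change -0.028, 95% interval -0.21 to 0.15), and for Cdca3, a trigger of WEE1 destruction at mitotic entry (log2 fold change -0.019, 95% interval -0.098 to 0.061). Leaving out MUT_CTCF replicate 1 or 2 moved the log2 fold change of Ccnb1 to -0.071 or -0.011, of Ccnb2 to 0.13 or 0.026 and of Cks2 to -0.20 or -0.0043. The direction turned for Cdc25c, from -0.14 without MUT_CTCF replicate 1 to 0.074 without MUT_CTCF replicate 2, and for Cdca3, from -0.063 without WT_CTCF replicate 2 to 0.025 without WT_CTCF replicate 1.

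The 5 mitotic kinases and chromosomal passengers had log2 fold changes from -0.040 to 0.044, with a median of -0.024. That median depended on single libraries. The middle value was that of Birc5, -0.0040, without WT_CTCF replicate 1, and that of Plk1, -0.052, without WT_CTCF replicate 2. Plk1, the kinase of centrosome maturation and mitotic exit, had 14101 and 13568 normalized counts in WT_CTCF replicates 1 and 2, against 13525 and 13690.3 in those of MUT_CTCF. Aurka, the spindle pole kinase, had 8467 and 8118 normalized counts in WT_CTCF replicates 1 and 2, against 8324 and 7803 in those of MUT_CTCF. Both overlapped, with intervals of -0.086 to 0.038 for Plk1 and -0.11 to 0.034 for Aurka. The chromosomal passenger complex pairs the kinase from Aurkb with survivin, from Birc5, and borealin, from Cdca8. Aurkb had 5497 and 5434 normalized counts in WT_CTCF replicates 1 and 2, against 5761 and 5508 in those of MUT_CTCF, with MUT_CTCF the higher 2 (log2 fold change 0.044, 95% interval -0.039 to 0.13). Birc5 overlapped (log2 fold change 0.0021, 95% interval -0.076 to 0.081), and Cdca8, with 232 exon bases shared with 9930104L06Rik on the opposite strand, had MUT_CTCF the lower 2 (log2 fold change -0.035, 95% interval -0.10 to 0.034). Without MUT_CTCF replicate 1 or 2 the log2 fold change moved for Aurka to -0.088 or 0.0039, for Aurkb to 0.011 or 0.075 and for Birc5 to 0.018 or -0.016. Without WT_CTCF replicate 1 or 2 it moved for Plk1 to 0.0038 or -0.052 and for Cdca8 to -0.016 or -0.055.

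The 7 genes of the spindle checkpoint and the APC had a median log2 fold change of -0.070, with MUT_CTCF below WT_CTCF in both libraries for 4 of them, 57.1%, beside 22.3% of all tested genes. Without WT_CTCF replicate 1 the middle value of the 7 was that of Cdc20, -0.11. The checkpoint holds CDC20 in a complex with MAD2, BUBR1 and BUB3 until every kinetochore is attached, and free CDC20 then switches on the APC, for which UBE2C supplies ubiquitin. Cdc20 (ENSMUSG00000006398, at chr4:118105506-118109957 of mm9, on the minus strand) had 17329.5 and 16799 normalized counts in WT_CTCF replicates 1 and 2, against 15139 and 16061 in those of MUT_CTCF. Means were 17064 ± 375 with wild-type CTCF and 15600.0 ± 651 with the mutant (SD, n = 2 each). Both MUT_CTCF libraries lay below both WT_CTCF libraries. The log2 fold change was -0.13 ± 0.030 (SE), interval -0.19 to -0.069, with an adjusted p of 0.00703 from edgeR's quasi-likelihood test with Benjamini-Hochberg adjustment, and an exact permutation test of 2 against 2 libraries cannot go below p = 0.333. The call did not hold in 4 of the 9 alternative fits: the edgeR Benjamini-Hochberg adjusted p was 0.225 without WT_CTCF replicate 1, 0.499 without MUT_CTCF replicate 1, 0.394 without MUT_CTCF replicate 2 and 0.288 with no filter on low counts, over a range of 0.000692 to 0.499 in all 9, and the direction held in each. Of its exon bases, 53 are shared with Elovl1 on the opposite strand.

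The promoters of Cdc20, Top2a, Bub3 and Ube2c are shown because they are, by p, the first 4 members with a CHR match before the start in RefSeq's promoter table (GRCm38.p6), each as the 120 bases before the start, in the direction of the gene. Capitals mark CHR letters, TTTGAA or TTCGAA, and CCAAT letters, on either strand, so that TTCAAA and ATTGG also count. Cdc20 lies at chr4:118437344-118437463 on the minus strand, Top2a at chr11:99024190-99024309 on the minus strand, Bub3 at chr7:131560250-131560369 on the plus strand and Ube2c at chr2:164769809-164769928 on the plus strand.
Cdc20: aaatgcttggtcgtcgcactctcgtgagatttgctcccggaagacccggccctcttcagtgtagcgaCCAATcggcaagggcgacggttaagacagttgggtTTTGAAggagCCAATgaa
Top2a: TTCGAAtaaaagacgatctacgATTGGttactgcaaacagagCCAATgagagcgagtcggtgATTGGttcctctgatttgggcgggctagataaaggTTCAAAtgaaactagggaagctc
Bub3: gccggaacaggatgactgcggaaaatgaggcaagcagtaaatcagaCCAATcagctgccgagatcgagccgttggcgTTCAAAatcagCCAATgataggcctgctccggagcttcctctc
Ube2c: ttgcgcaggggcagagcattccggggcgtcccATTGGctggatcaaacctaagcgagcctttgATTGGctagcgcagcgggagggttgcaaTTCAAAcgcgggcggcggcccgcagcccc
In Cdc20 the CHR letters begin 18 bases before the start and CCAAT letters 53 and 8 bases before it. In Bub3 they begin 43 bases before the start, with CCAAT letters at 74 and 32 bases, and in Ube2c at 29 bases, with CCAAT letters at 88 and 57. The Top2a window holds CHR letters at 120 and 23 bases and CCAAT letters at 98, 78 and 58. These are matches of letters, and no binding was measured here.

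Within the 250 bases before the start, 25 of the 33 members in the table held CCAAT letters, 75.8%, beside 34.5% of 27018 promoters, and 11 held CHR letters, 33.3%, beside 17.5%. Both kinds were found in 10 members, 30.3%, beside 6.23% of all promoters. In the last 100 bases CCAAT letters were in 69.7% of the members and 19.6% of all promoters. Ccna2, Cdc25c, Aurkb, Kif20a and Tpx2 were not in the table. For each symbol 1 start was used, the one farthest upstream. The 27018 promoters were not limited to protein-coding or tested genes, nor matched to the members by level.

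**Figure D2:**
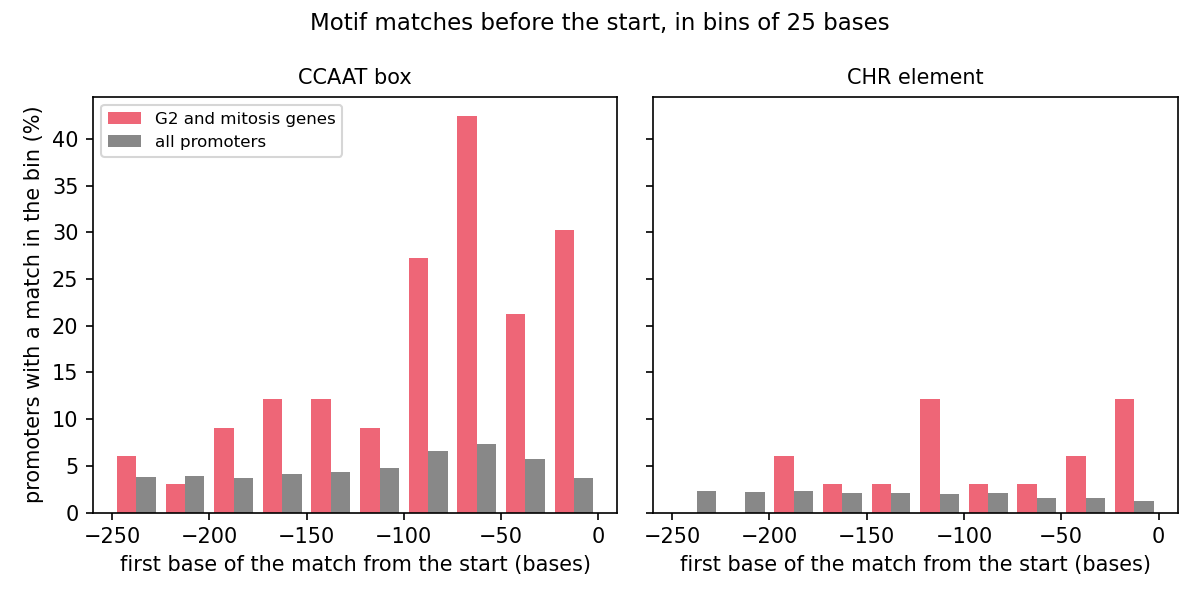
Share of promoters (percent) with a match of CCAAT letters (left) or CHR letters (right) that begins in each bin of 25 bases before the start, for the 33 G2 and mitosis genes in the table and for 27018 promoters of the same length. CCAAT matches of the G2 and mitosis genes gather in the last 100 bases.

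The checkpoint proteins that hold CDC20 gave mixed values. Mad2l1, which codes for MAD2, had 3475 and 3499 normalized counts in WT_CTCF replicates 1 and 2, against 3226 and 3126 in those of MUT_CTCF. The groups did not overlap, and the log2 fold change of -0.13 ± 0.050 (SE) had an unadjusted p of 0.00957 and an adjusted p of 0.144 in edgeR's quasi-likelihood test with Benjamini-Hochberg adjustment. Matches elsewhere in mm9, as above, cover 26.9% of its transcript. Bub3, a scaffold at the kinetochore, had 9588 and 9575 normalized counts in WT_CTCF replicates 1 and 2, against 9021 and 9252 in those of MUT_CTCF, again with MUT_CTCF the lower 2 (log2 fold change -0.069, 95% interval -0.14 to 7.8e-05). In contrast, Bub1b, which codes for BUBR1, had 12910.5 and 13002 normalized counts in WT_CTCF replicates 1 and 2, against 12984 and 12987 in those of MUT_CTCF. Its 4 values lay within a span of under 100 counts (log2 fold change 0.0032, 95% interval -0.059 to 0.065). Of the checkpoint kinases, Bub1 had MUT_CTCF the lower 2 (log2 fold change -0.13, 95% interval -0.31 to 0.037) and Ttk, which codes for MPS1, overlapped (log2 fold change -0.067, 95% interval -0.26 to 0.12). Ube2c had 9655 and 9352 normalized counts in WT_CTCF replicates 1 and 2, against 9353 and 8752 in those of MUT_CTCF, which overlapped (log2 fold change -0.070, 95% interval -0.14 to 0.0013); 592 of its exon bases are shared with Tnnc2 on the opposite strand. The log2 fold change moved without MUT_CTCF replicate 1 or 2 for Bub1 to -0.20 or -0.071 and for Ube2c to -0.12 or -0.025, and without WT_CTCF replicate 1 or 2 for Ttk to -0.17 or 0.041 and for Bub1b to -0.0023 or 0.0073.

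**Figure D3:**
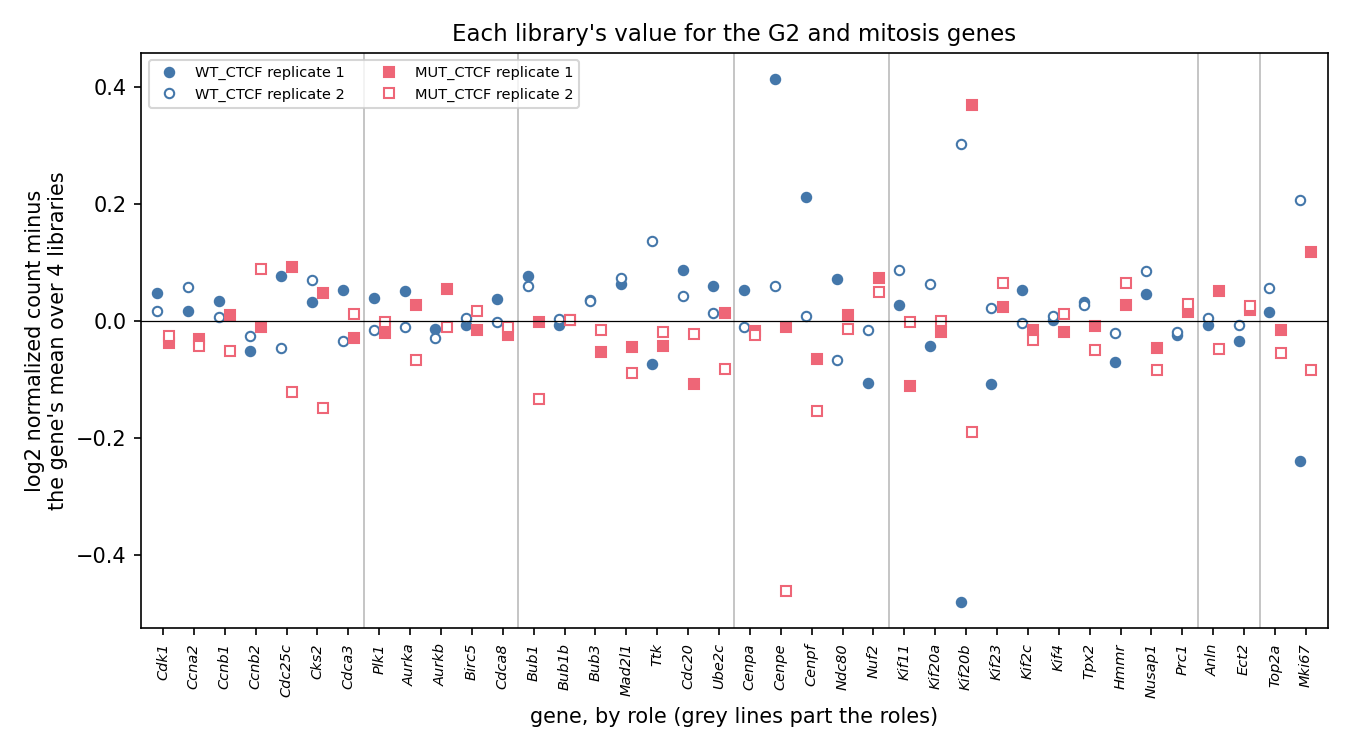
Log2 normalized count of each G2 and mitosis gene in each library, minus the gene's mean over the 4 libraries; circles are WT_CTCF, squares MUT_CTCF, filled for replicate 1 and open for replicate 2. Most values lie near 0, and the wide spread belongs to Cenpe, Cenpf, Kif20b and Mki67.

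At the centromere and kinetochore, the fold changes farthest from 0 came with the fewest counts. Cenpe, a kinesin that moves chromosomes to the spindle equator, had 138 and 108 normalized counts in WT_CTCF replicates 1 and 2, against 103 and 75.4 in those of MUT_CTCF. Its log2 fold change of -0.46 ± 0.26 (SE) was the lowest of the 38, but its interval, -0.98 to 0.054, holds 0, and it became -0.28 without WT_CTCF replicate 1 and -0.71 or -0.26 without MUT_CTCF replicate 1 or 2. Cenpf, a large kinetochore protein of G2 and mitosis, had 479 and 416 normalized counts in WT_CTCF replicates 1 and 2, against 396 and 372 in those of MUT_CTCF, also without overlap (log2 fold change -0.22, 95% interval -0.48 to 0.035). Nuf2 and Ndc80 are arms of the NDC80 complex that grips microtubules. Nuf2 had 1604 and 1707 normalized counts in WT_CTCF replicates 1 and 2, against 1816 and 1787 in those of MUT_CTCF, with MUT_CTCF the higher 2 (log2 fold change 0.12, 95% interval -0.012 to 0.26), while Ndc80 overlapped (log2 fold change -0.0057, 95% interval -0.20 to 0.19; 0.0068 by library size only). Cenpa, the histone H3 variant that marks centromeres, had MUT_CTCF the lower 2 by a narrow gap (log2 fold change -0.042, 95% interval -0.12 to 0.037). Leaving out WT_CTCF replicate 1 moved Cenpf to -0.12 and Nuf2 to 0.077, and leaving out WT_CTCF replicate 1 or 2 moved Cenpa to -0.010 or -0.074 and Ndc80 to 0.064 or -0.074. Near-identical matches elsewhere in mm9 cover 12.8% of the Nuf2 transcript, 3.6% of that of Cenpe and 1.91% of that of Cenpf.

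Among the kinesins and spindle proteins, 4 of 10 had MUT_CTCF the lower 2, 40%, and 3 had MUT_CTCF the higher 2, 30%, beside 22.3% and 22.3% of all tested genes. Nusap1, a microtubule-binding spindle protein, had 1806 and 1854 normalized counts in WT_CTCF replicates 1 and 2, against 1692 and 1649.9 in those of MUT_CTCF (log2 fold change -0.13, 95% interval -0.26 to 0.0011). Kif11, the motor that pushes the spindle poles apart, had 1372 and 1429 normalized counts in WT_CTCF replicates 1 and 2, against 1246 and 1343 in those of MUT_CTCF (log2 fold change -0.11, 95% interval -0.26 to 0.036). Groups of both genes stood apart, yet neither interval excluded 0. The others that were lower in both MUT_CTCF libraries were Tpx2, which activates Aurora A on the spindle (log2 fold change -0.058, 95% interval -0.13 to 0.017), and Kif2c, a microtubule depolymerase at centromeres (log2 fold change -0.049, 95% interval -0.13 to 0.035). On the higher side were Kif23, a centralspindlin motor (log2 fold change 0.085, 95% interval -0.035 to 0.21), Hmmr, a spindle pole protein (log2 fold change 0.092, 95% interval -0.072 to 0.26), and Prc1, which bundles the central spindle (log2 fold change 0.044, 95% interval -0.038 to 0.13). The groups overlapped for Kif20a, a cytokinesis kinesin (log2 fold change -0.020, 95% interval -0.093 to 0.052), and for Kif4, a chromosome-bound kinesin (log2 fold change -0.0091, 95% interval -0.18 to 0.16; 0.0032 by library size only). Kif20b, a kinesin of late cytokinesis, had 50.1 and 86.2 normalized counts in WT_CTCF replicates 1 and 2, against 90.2 and 61.3 in those of MUT_CTCF, and its interval of -0.50 to 0.81 was the widest of all members. Log2 fold changes without WT_CTCF replicate 1 or 2 moved for Kif23 to 0.022 or 0.15, for Kif2c to -0.021 or -0.078, for Kif20a to -0.073 or 0.033 and for Kif20b to -0.19 or 0.60. Those without MUT_CTCF replicate 1 moved to -0.060 for Kif11 and 0.0062 for Kif4. Exons of Nusap1, Kif20a and Kif4 overlap Oip5, Cdc23 and Pdzd11 on the opposite strand, and 13.7% of the Prc1 transcript has a near-identical match elsewhere.

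In the cytokinesis pair, Anln, which codes for the ring scaffold anillin, had 5045 and 5092 normalized counts in WT_CTCF replicates 1 and 2, against 5254 and 4906 in those of MUT_CTCF, which overlapped (log2 fold change 0.0034, 95% interval -0.084 to 0.090). Ect2, the exchange factor that activates RhoA at the cell equator, had 3041 and 3097 normalized counts in WT_CTCF replicates 1 and 2, against 3155 and 3168 in those of MUT_CTCF, with MUT_CTCF the higher 2 by a narrow gap (log2 fold change 0.043, 95% interval -0.060 to 0.15). The chromosome genes differed from each other in depth. Top2a, the topoisomerase that untangles sister chromatids, had 13340.2 and 13721 normalized counts in WT_CTCF replicates 1 and 2, against 13048 and 12697 in those of MUT_CTCF. Its groups did not overlap, and the log2 fold change of -0.072 ± 0.031 (SE) had an unadjusted p of 0.025 and an adjusted p of 0.246 in edgeR's quasi-likelihood test with Benjamini-Hochberg adjustment; 122 of its exon bases are shared with SNORA32 on the same strand. Mki67, which codes for the proliferation marker Ki-67 that coats mitotic chromosomes, had only 136 and 185 normalized counts in WT_CTCF replicates 1 and 2, against 174 and 152 in those of MUT_CTCF, and the interval of -0.39 to 0.43 spans changes in both directions. The direction turned with a library left out for Anln, at -0.047 or 0.051 without MUT_CTCF replicate 1 or 2, and for Mki67, at -0.19 or 0.26 without WT_CTCF replicate 1 or 2.

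Levels per length ranged over 676-fold among the 38 genes, from 0.317 CPM per kb for Kif20b, 0.333 for Cenpe and 0.394 for Mki67 to 153 for Plk1 and 214 for Cdc20, as means over the 4 libraries. The median was 36.4, beside 4.64 for 14654 tested protein-coding genes. The 4 lowest, Kif20b, Cenpe, Mki67 and Cenpf, have from 5567 to 11368 bases in the union of all their annotated exons. In level per length, Kif20b was above 13.1% and Mki67 above 15.3% of tested protein-coding genes. Top2a, with 9070 bases in the union of its exons, reached 35.7 CPM per kb, but its longest protein-coding transcript has 5221 bases. Across the 38 genes, as a description over points that share libraries, Spearman's rho of the level per length was -0.65 with exon length and 0.69 with the GC content of the exons, beside -0.15 and 0.11 over tested protein-coding genes. Between log2 fold change and these, rho over the members was 0.079 for length and 0.029 for GC content, beside 0.089 and 0.064 over tested protein-coding genes. With the level per length it was -0.10 over the members and -0.20 over tested protein-coding genes.

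**Figure D4:**
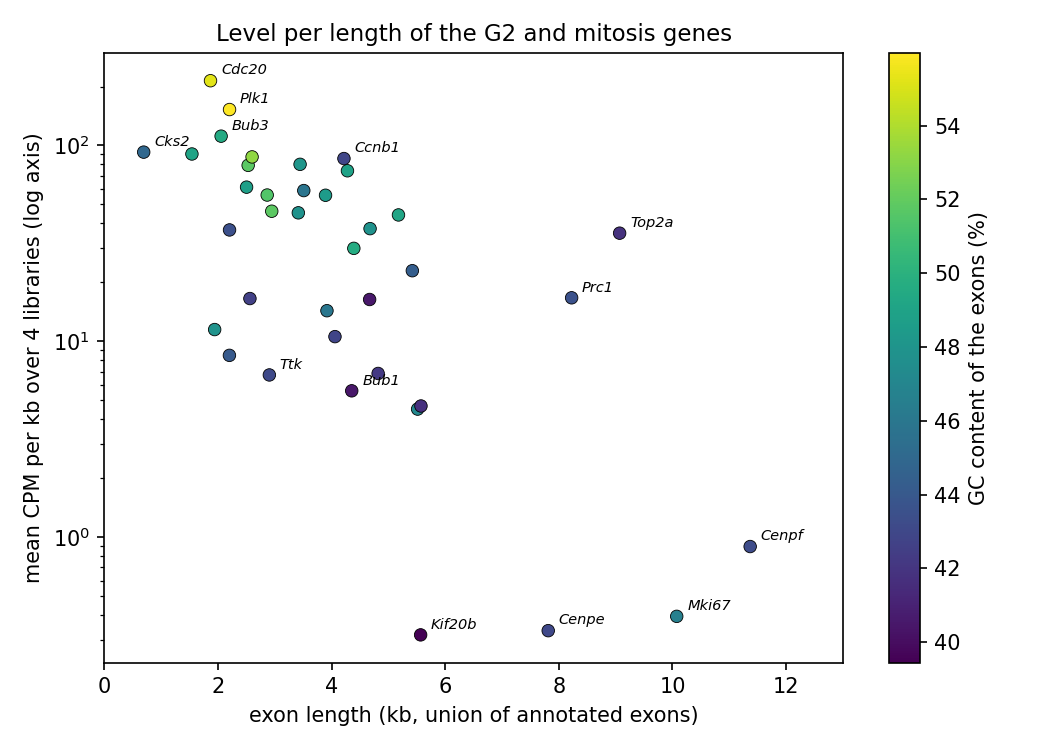
Mean CPM per kb of exon over the 4 libraries (log axis) against exon length in kb for the 38 G2 and mitosis genes, coloured by exon GC content (percent). Kif20b, Cenpe, Mki67 and Cenpf lie below 1 CPM per kb, while Top2a and Prc1, of like length by the union of annotated exons, lie above 10. The longest protein-coding transcripts of these 2, 5221 bases for Top2a and 3049 for Prc1, are shorter than the union.

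Outside the 38, 113 other mitosis genes (kinetochore, condensin, APC, spindle and regulator genes) were centred at a log2 fold change of -0.020 (-0.0076 by library size only, -0.035 without WT_CTCF replicate 2). Of the 113, 65.5% lay below 0, beside 49.2% of all tested genes. Both MUT_CTCF libraries lay below both WT_CTCF libraries for 33.6% and above both for 15.0%, beside 22.3% and 22.3% of all tested genes. At an adjusted p under 0.05 (edgeR, Benjamini-Hochberg) 2 were lower, 1.77%, and 1 higher, 0.885%, beside 1.61% and 1.56% of all tested genes. At an unadjusted p under 0.05 they were 11, 9.73%, and 4, 3.54%, beside 7.65% and 7.61%. Fam64a, a regulator of APC timing at anaphase, rose from 1525 and 1571 normalized counts to 1912 and 1812 in MUT_CTCF, a log2 fold change of 0.27 ± 0.067 (SE) with an edgeR Benjamini-Hochberg adjusted p of 0.0136. Kifc1, a minus-end kinesin of the spindle poles, fell from 10727 and 10780.3 to 9926 and 9819, by 0.12 ± 0.033 (SE) on the log2 scale (edgeR, Benjamini-Hochberg adjusted p = 0.0243). E2f4, a DNA-binding part of DREAM, fell from 10145 and 9991 to 9009.6 and 9564, by 0.12 ± 0.035 (SE) on the log2 scale (edgeR, Benjamini-Hochberg adjusted p = 0.0476). The adjusted p (Benjamini-Hochberg) was 0.052 with DESeq2 and 0.218 with no filter for Fam64a. For Kifc1 it was 0.0533 by library size only and 0.213 with no filter, and for E2f4 0.0984 with DESeq2, 0.0972 by library size only and 0.365 with no filter. With 1 library left out, none of these 3 calls held, with edgeR Benjamini-Hochberg adjusted p from 0.0597 to 0.484 for Fam64a, 0.186 to 0.477 for Kifc1 and 0.167 to 0.524 for E2f4, which shrank to -0.074 on the log2 scale with MUT_CTCF replicate 1 left out. The activators of the program, Foxm1 (log2 fold change -0.058, 95% interval -0.14 to 0.029; -0.035 without WT_CTCF replicate 2) and Mybl2, which codes for B-MYB (log2 fold change 0.0012, 95% interval -0.047 to 0.050; -0.00014 with no filter, -0.0085 without WT_CTCF replicate 2), did not pass the test.

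The 40 S phase genes had a median log2 fold change of 0.014, which was 0.026 by library size only, 0.0077 without WT_CTCF replicate 2 and 0.0066 without MUT_CTCF replicate 1. For the 23 G1 genes it was 0.023, but -0.018 without WT_CTCF replicate 1, 0.013 without MUT_CTCF replicate 2 and 0.035 by library size only. In each list 1 gene was lower at an adjusted p under 0.05 with edgeR, 2.5% of the S phase and 4.35% of the G1 genes, beside 1.61% of all tested genes. None of either list, 0, was higher with edgeR, beside 1.56% of all tested genes. DESeq2 gave 1 S phase gene and 0 G1 genes lower, and 0 higher in each list. At an unadjusted p under 0.05, 3 S phase genes (Mcm4, Cdc6 and Rrm2) were higher, 7.5%, and 2 (Mcm2 and Mcm5) lower, 5%. Of the G1 genes, 2 (Ccnd1 and Cdkn2c) were higher and 2 (Cdk4 and Cdkn1a) lower, 8.7% each, beside 7.61% of all tested genes higher and 7.65% lower. Mcm5, a subunit of the replicative helicase, had 57219 and 57054 normalized counts in WT_CTCF replicates 1 and 2, against 53344 and 54423 in those of MUT_CTCF, and fell by 0.085 ± 0.022 (SE) on the log2 scale (edgeR, Benjamini-Hochberg adjusted p = 0.0178; 0.0519 by library size only, 0.225 with no filter, 0.128 to 0.464 with any 1 library left out). Cdkn1a, the p21 inhibitor of CDKs, had 11669.5 and 11339 normalized counts in WT_CTCF replicates 1 and 2, against 10796 and 10469 in those of MUT_CTCF, and fell by 0.11 ± 0.033 (SE) on the log2 scale (edgeR, Benjamini-Hochberg adjusted p = 0.0397; 0.0575 with DESeq2, 0.0877 by library size only, 0.293 with no filter, 0.11 to 0.508 with any 1 library left out). Of the G1 cyclins, Ccnd1 had an unadjusted p of 0.0102 (log2 fold change 0.091, 95% interval 0.022 to 0.16) and Ccne1 lay near 0 (log2 fold change -0.0034, 95% interval -0.073 to 0.067; 0.0090 by library size only, -0.028 or 0.020 without WT_CTCF replicate 1 or 2). The other CDK inhibitors named here were Cdkn2c, which had 59.1 and 54.1 normalized counts in WT_CTCF replicates 1 and 2, against 86.2 and 127 in those of MUT_CTCF (log2 fold change 0.91, 95% interval 0.31 to 1.51; edgeR, Benjamini-Hochberg adjusted p = 0.0879; log2 fold change 0.60 without MUT_CTCF replicate 2), and Cdkn1b (log2 fold change 0.045, 95% interval -0.13 to 0.22; 0.076 or 0.013 without MUT_CTCF replicate 1 or 2). Cdk4, the kinase partner of cyclin D1, had an unadjusted p of 0.0203 (log2 fold change -0.071, 95% interval -0.13 to -0.011; -0.025 without WT_CTCF replicate 1 and -0.12 without WT_CTCF replicate 2). No test was made of the differences between these lists and the G2 and mitosis genes.

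**Figure D5:**
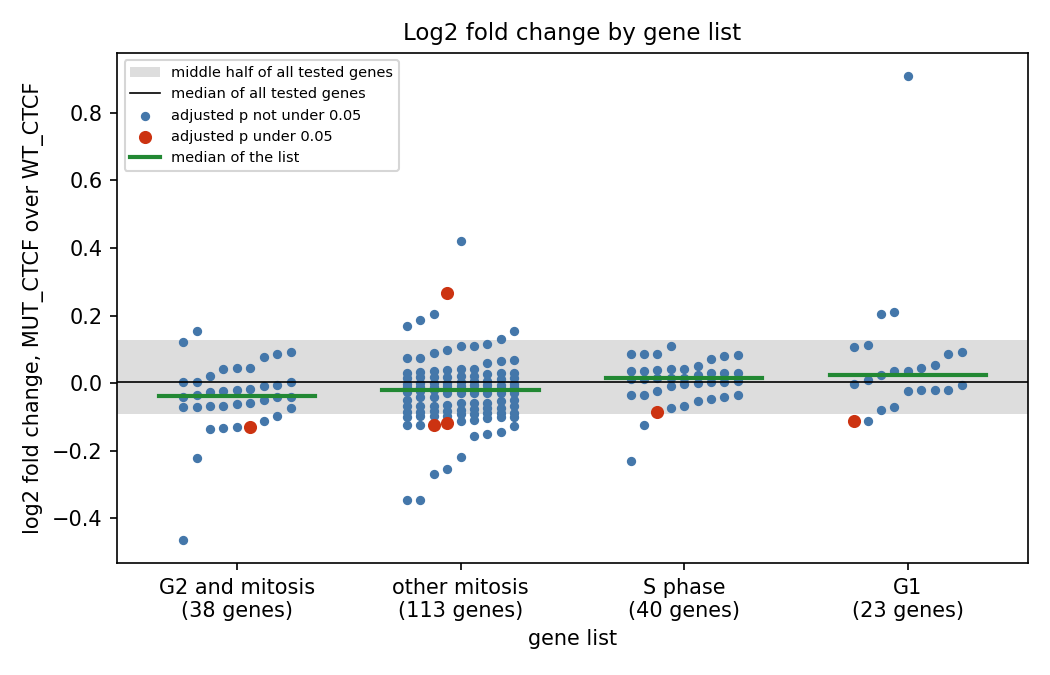
Log2 fold change, MUT_CTCF over WT_CTCF, of every tested gene in 4 lists, with the list's median (green), the median of all tested genes (black line) and their interquartile range (grey band). Red points have an adjusted p under 0.05: Cdc20 among the G2 and mitosis genes, Fam64a, Kifc1 and E2f4 among other mitosis genes, Mcm5 in S phase and Cdkn1a in G1.

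Markers of other cell types were checked beside the members, since some moved between the lines. Of the 6 trophectoderm markers, 2 fell, Cdx2 from 274 and 299 to 132 and 159.8 normalized counts (log2 fold change -0.97 ± 0.18 (SE); edgeR, Benjamini-Hochberg adjusted p = 0.000227) and Krt8 (log2 fold change -0.30 ± 0.085 (SE); edgeR, Benjamini-Hochberg adjusted p = 0.0319). Summed over the 6 they gave 54.3 and 51 CPM in WT_CTCF and 43.5 and 45.2 in MUT_CTCF, Krt8 being the most abundant per length. The 6 primitive endoderm markers summed to 9.88 and 9.68 CPM in WT_CTCF and 11 and 16.5 in MUT_CTCF, with 0 of 4 tested at an adjusted p under 0.05 with edgeR or DESeq2, 2 higher at an unadjusted p under 0.05, and Gata4 the most abundant per length. Neural ectoderm, mesoderm and fibroblast markers had 0 calls at an adjusted p under 0.05 with edgeR or DESeq2 and 1 at an unadjusted p under 0.05, the lower Col3a1, and Fgf5 and Lum had 0 counts in every library. Of the mESC markers, Sox2 was higher (log2 fold change 0.095, 95% interval 0.041 to 0.15) and Dppa5a lower (log2 fold change -0.099, 95% interval -0.15 to -0.048; -0.055 without WT_CTCF replicate 1). At an unadjusted p under 0.05, 3 of the 8 mESC markers were lower (Pou5f1, Zfp42 and Dppa5a), 37.5%, and 2 higher (Sox2 and Klf4), 25%, beside 7.65% and 7.61% of all tested genes. With no filter all 4 of these calls were lost, at a Benjamini-Hochberg adjusted p of 0.117 for Cdx2, 0.241 for Krt8, 0.269 for Sox2 and 0.346 for Dppa5a. Krt8 was also lost with DESeq2 (0.108) and by library size only (0.0509), and Cdx2 had no adjusted p in DESeq2. Leaving out 1 library gave edgeR Benjamini-Hochberg adjusted p of 0.000453 to 0.447 for Cdx2, 0.132 to 0.486 for Krt8, 0.205 to 0.477 for Sox2 and 0.00393 to 0.58 for Dppa5a, with the calls of Krt8 and Sox2 lost without any 1 library, that of Cdx2 without either MUT_CTCF library and that of Dppa5a without any but WT_CTCF replicate 2. Whether any of these marker changes bears on the G2 and mitosis genes was not tested.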

How the data were processed

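RNA was measured in 4 libraries of mESCs. Per the authors' methods, reads were trimmed (Trim Galore 0.4.4), aligned to mm9 with STAR, and uniquely mapped reads were counted per gene with HTSeq 0.9.1; the counts were deposited without normalization. A deposited table of the authors' own edgeR comparison (fold changes and p-values) was not used here. Counts of 4 libraries, 2 WT_CTCF and 2 MUT_CTCF, were matched to symbols by GENCODE M1 (mm9), with older symbols from RefSeq for Bora, Mis18a, Ska2 and Ska3; Sox1 was not matched. Genes kept by filterByExpr (minimum 10 counts; 16264 of 37620) were scaled by TMM and tested with edgeR 4.0.16 in R 4.3.3 (glmQLFit, glmQLFTest) on genotype alone, with Benjamini-Hochberg adjustment over all tested genes. SE is the log2 fold change over the root of F, and 95% intervals use the t quantile at the total degrees of freedom. Alternatives were DESeq2 1.42.0, its size factors, library size only, no filter, a replicate block, each library left out and an adjusted p under 0.1. The edgeR and DESeq2 fits were tested on simulated data. DESeq2 first missed the limit set on false calls at the smallest fold tried. The limit was then replaced by another criterion, and later restored only for runs with at least 20 calls, so control of false calls was not shown for changes as small as those of Cdc20, Kifc1, E2f4, Mcm5, Cdkn1a, Sox2 and Dppa5a. Replicates differed by more than sampling noise (chi-square per degree of freedom 3.61 in WT_CTCF and 4.27 in MUT_CTCF). Exon lengths, GC content and overlaps came from GENCODE M1, and near-identical copies from blastn of member transcripts against mm9. Named were all 38 members, every other mitosis, S phase or G1 gene with an adjusted p under 0.05, Foxm1, Mybl2, Ccnd1, Ccne1, Cdkn1a and Cdkn1b, and cell type markers; S phase and G1 genes at an unadjusted p under 0.05 were added after seeing the data. Members and lists were chosen with earlier results of these data known.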

Additional observations from a re-analysis of the deposited data

How the results depend on the processing

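Under DESeq2, DESeq2's size factors, library size only, the replicate block and an adjusted p under 0.1, the count of G2 and mitosis genes was 1 lower and 0 higher; with no filter on low counts, which tested 23739 genes, it was 0 and 0, and 29 genes of the whole table passed. With 1 library left out, where the lone library was assumed to vary like the other group, the count lower was 0 to 1, and 0 genes of the whole table passed without either MUT_CTCF library. At the study's criterion 0 members passed in each alternative. Among the 339 log2 fold changes of members under 9 alternatives, 313 kept their direction and side of the threshold, 4, all of Cdc20, lost the call, and 22 changed sign; DESeq2 gave 3 members no adjusted p. The other mitosis genes were 1 lower and 0 higher with DESeq2, beside 158 and 128 of 9019 tested genes. By library size only they were 0 lower and 1 higher, beside 152 and 260 of 16264. With no filter they were 0 and 0, beside 3 and 26 of 23739. Under the replicate block they were 5 lower and 1 higher, beside 372 and 326 of 16264. S phase genes lower were 0 by library size only, with no filter and with 1 library left out, and G1 genes lower were 0 in these and with DESeq2. The median of the members ran from -0.056 to -0.024 with 1 library left out, that of other mitosis genes from -0.035 to -0.021, of S phase genes from 0.0066 to 0.012 and of G1 genes from -0.018 to 0.034; by library size only the medians of other mitosis and S phase genes were -0.0076 and 0.026. Sign changes by library size only were Ndc80 at 0.0068, Kif4 at 0.0032 and Ccne1 at 0.0090, and with no filter Mybl2 at -0.00014. With 1 library left out, log2 fold changes that changed sign ran from -0.14 to 0.074 for Cdc25c, -0.063 to 0.025 for Cdca3, -0.052 to 0.0038 for Plk1, -0.088 to 0.0039 for Aurka, -0.016 to 0.018 for Birc5, -0.0023 to 0.0073 for Bub1b, -0.17 to 0.041 for Ttk, -0.074 to 0.064 for Ndc80, -0.073 to 0.033 for Kif20a, -0.19 to 0.60 for Kif20b, -0.026 to 0.0062 for Kif4, -0.047 to 0.051 for Anln, -0.19 to 0.26 for Mki67, -0.0085 to 0.0094 for Mybl2 and -0.028 to 0.020 for Ccne1. By library size only, log2 fold changes that kept their sign but moved by over 1.5 times were -0.015 for Cdc25c, -0.0064 for Cdca3, -0.011 for Plk1, 0.014 for Birc5, -0.022 for Cdca8, 0.016 for Bub1b, -0.0080 for Kif20a, 0.016 for Anln, 0.033 for Mki67 and 0.014 for Mybl2. The cause was not tested. The fit with no filter tested more genes and a left-out library left fewer samples, but whether either moved the calls was not tested. Calls over the whole table were 515 with edgeR, 286 with DESeq2, 412 by library size only, 193 without WT_CTCF replicate 1 and 242 without WT_CTCF replicate 2. Members lower at an unadjusted p under 0.05 were 4, against 2 by library size only, 7 with no filter, 8 under the replicate block, 6 without MUT_CTCF replicate 1 and 2 without MUT_CTCF replicate 2. No share of all tested genes in the same fit stands beside these counts of members. The replicate block raised the whole table's calls from 515 to 698. Over all tested genes, the differences of replicate 1 minus replicate 2 correlated at -0.020 between the lines. Whether libraries of the same number shared a batch was not tested. The alternatives for the medians of the other mitosis, S phase and G1 genes, for the counts of S phase and G1 genes and for single genes outside the 38 were chosen after seeing the data. Of the members, Kif20b, Cenpe, Mki67 and Cenpf had the widest intervals.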
